A study of Mus musculus with 6 samples.

Results

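Motor proteins carry organelles, vesicles and mRNAs along the cytoskeleton of neurons. The genes described here are the 89 protein-coding genes, of 21958 in the deposited table, whose symbols begin with Kif, Klc or Myo and a digit, or with Dync, Dynl or Dctn. They comprised 37 kinesin heavy chains, 4 kinesin light chains, 7 heavy, intermediate and light intermediate chains of cytoplasmic dynein, 9 dynein light chains, 6 dynactin subunits, 25 unconventional myosins, and Kif1bp, a kinesin-binding protein that the same letters take in. The rule uses the symbols and no measured value, although it was drawn up with earlier results of these data known.

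RNA came from synaptoneurosomes, a brain fraction enriched in pinched-off pre- and postsynaptic endings, of the hippocampus and adjacent cortex of FVB mice aged 6 to 8 weeks. In the group NMDA polyribosomes (3 libraries), synaptoneurosomes received 50 µM NMDA and 10 µM glutamate for 30 s, then 120 µM APV, a blocker of the NMDA receptor, and were incubated for 20 min before their polyribosomes were collected on a sucrose gradient. In the group unstim. Total (3 libraries), RNA was taken from unstimulated and unfractionated synaptoneurosomes. Each preparation pooled several mice and was divided into aliquots, so that a polyribosome and a total RNA library with the same replicate number form a pair. Stimulation and fraction changed together and cannot be told apart, and a synaptoneurosome preparation keeps some RNA of glia and of cell bodies. The comparison asks which motor mRNAs were over- or under-represented on polyribosomes of stimulated synapses relative to the whole mRNA pool.

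Kinesins and dynein walk on microtubules. Most kinesins move cargo towards the plus end, which in axons points to the terminal, whereas cytoplasmic dynein, with its activator dynactin, moves cargo towards the minus end and so from the terminal to the cell body. Unconventional myosins walk on actin filaments and act over short distances, for example in dendritic spines. A motor is a complex of separately encoded parts, in which the heavy chain holds the ATPase and the smaller chains link it to cargo.

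Levels are given as CPM, a gene's count scaled to the TMM-normalized size of its library. Differences are log2 fold changes of polyribosomes over total RNA, with the SE after the ± sign, and a gene was called where the Benjamini-Hochberg adjusted p of edgeR's quasi-likelihood test, over 12255 genes, was under 0.01. Counts per library ran from 5294482 to 7361580 on polyribosomes and from 1044955 to 3738022 in total RNA, where replicate 3 was the shallowest. The marker lists of glial and endothelial cells had positive median fold changes. The summed level of 8 astrocyte markers was 44450 to 48660 CPM on polyribosomes and 34239 to 40101 CPM in total RNA, with 8 of 8 genes at a positive log2 fold change and a median of 0.48. The medians were 0.43 for 7 oligodendrocyte markers (10964 to 14815 against 7902 to 11060 CPM), 0.40 for 8 microglial markers (939 to 1082 against 597 to 839 CPM), 0.34 for 6 endothelial markers (299.6 to 530 against 303 to 317 CPM) and 0.10 for 10 neuronal and synaptic markers (13686 to 17076 against 12353 to 14336 CPM). By pair, the endothelial median was 0.26, -0.13 and 0.90, and without both replicate 3 libraries it was 0.033. The medians of the glial lists were positive in every pair. No marker gene of these 5 lists was at 0. Fewer cell fragments of a type and less RNA per fragment cannot be told apart in such bulk RNA, and the part of these markers in the differences below was not tested.

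Of the 89 motor genes, 60 passed the filter on low counts and 29 did not. The 29 were 14 kinesin heavy chains, 5 dynein light chains and 10 myosins, their mean level over the 6 libraries reached 2.1 CPM at most, and 4 of them had no count in any library. Motor mRNA was concentrated in few genes. Kif5a alone held 38.9% of the summed CPM of all 89 genes, and the 5 highest genes held 73.5%. Per kb of exon, the order over all libraries began with Kif5a (1011 CPM per kb), Kif1a (284), Kif5c (262), Klc1 (100.5), Kif1b (91.5), Dynll2 (74.6) and Kif5b (66.5). Between Kif1a and Kif5c the order turned with the group, at 281 ± 18.2 and 207 ± 62.1 CPM per kb on polyribosomes (SD, n = 3) and 287 ± 28.4 and 316 ± 14.7 in total RNA. Altogether 37 of the 60 genes lay above the median level of all genes tested and 12 at or above its 90th percentile. Kinesins of cell division formed the opposite end of the scale, since 1 of 12, Kif4, passed the filter, at 1.92 to 5.96 CPM in the single libraries, with 15.1% of its exon bases shared with another gene.

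Across the 60 genes, most differences between polyribosomes and total RNA were small. No motor gene was called higher, and 2 were called lower, the intraflagellar dynein heavy chain Dync2h1 and the myosin Myo9a. The background was 0.71% of all genes higher and 2.36% lower, and 2 of 60 is 3.33%. DESeq2 gave the same counts, 0 higher and 2 lower, beside 2.48% and 3.71% of its 10828 genes. It gave no adjusted p to some motor genes with few counts, among them Kif4, Kif17, Klc3 and Myo19. At an unadjusted p under 0.05 edgeR gave 7 motor genes higher and 19 lower, where 15.4% and 17.1% of all genes passed. The 3 libraries of a group lay entirely above those of the other in 8 of 60 genes for polyribosomes (13.3%, background 17.4%) and entirely below in 17 (28.3%, background 18.9%). The median log2 fold change was -0.08 over the motor genes, with 21 positive and 39 negative values, and 0.00 over all genes. With scaling to library totals alone, the median over all genes moved to -0.11, and every value shifts with it.

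The pairing of the libraries changed these counts. With the replicate as a block, 6 motor genes were called higher and 14 lower (10.0% and 23.3%, background 11.8% and 13.2%). All 20 had the same direction in all 3 pairs, as did 14 (23.3%) of the 60 upwards and 24 (40.0%) downwards, where all genes gave 30.2% and 30.6%. With 1 pair left out in turn, Kif5c, Kif21a, Myo9a and Dync2h1 were called in all 3 fits, 8 of the 20 in 2 fits, 7 in 1 fit and Kif5a in none. At an adjusted p under 0.05 without the block, 5 motor genes were higher and 7 lower (8.33% and 11.7%, background 6.52% and 8.85%), and without both replicate 3 libraries 2 were higher and 5 lower (background 3.67% and 5.37%). Transcripts rich in GC and short transcripts were over-represented on polyribosomes among genes in general, so the block was also fitted together with a correction of each gene for its GC content and length, called the offset here, and "with the offset" below means the fit with both unless the block is said to be absent. This left 3 motor genes higher and 10 lower (5.0% and 16.7%, background 9.1% and 7.21%). The share of motor genes called higher was below the background in both fits, and the share called lower was above it. Of all 1890 tested genes with a protein of at least 1000 residues, the block called 145 higher and 493 lower. Among the 32 motor genes of that size it called 2 higher and 7 lower. With the offset these counts were 149 and 242 of 1890, and 2 and 6 of 32. The part of protein size in the shares was not tested.

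**Figure D1:**
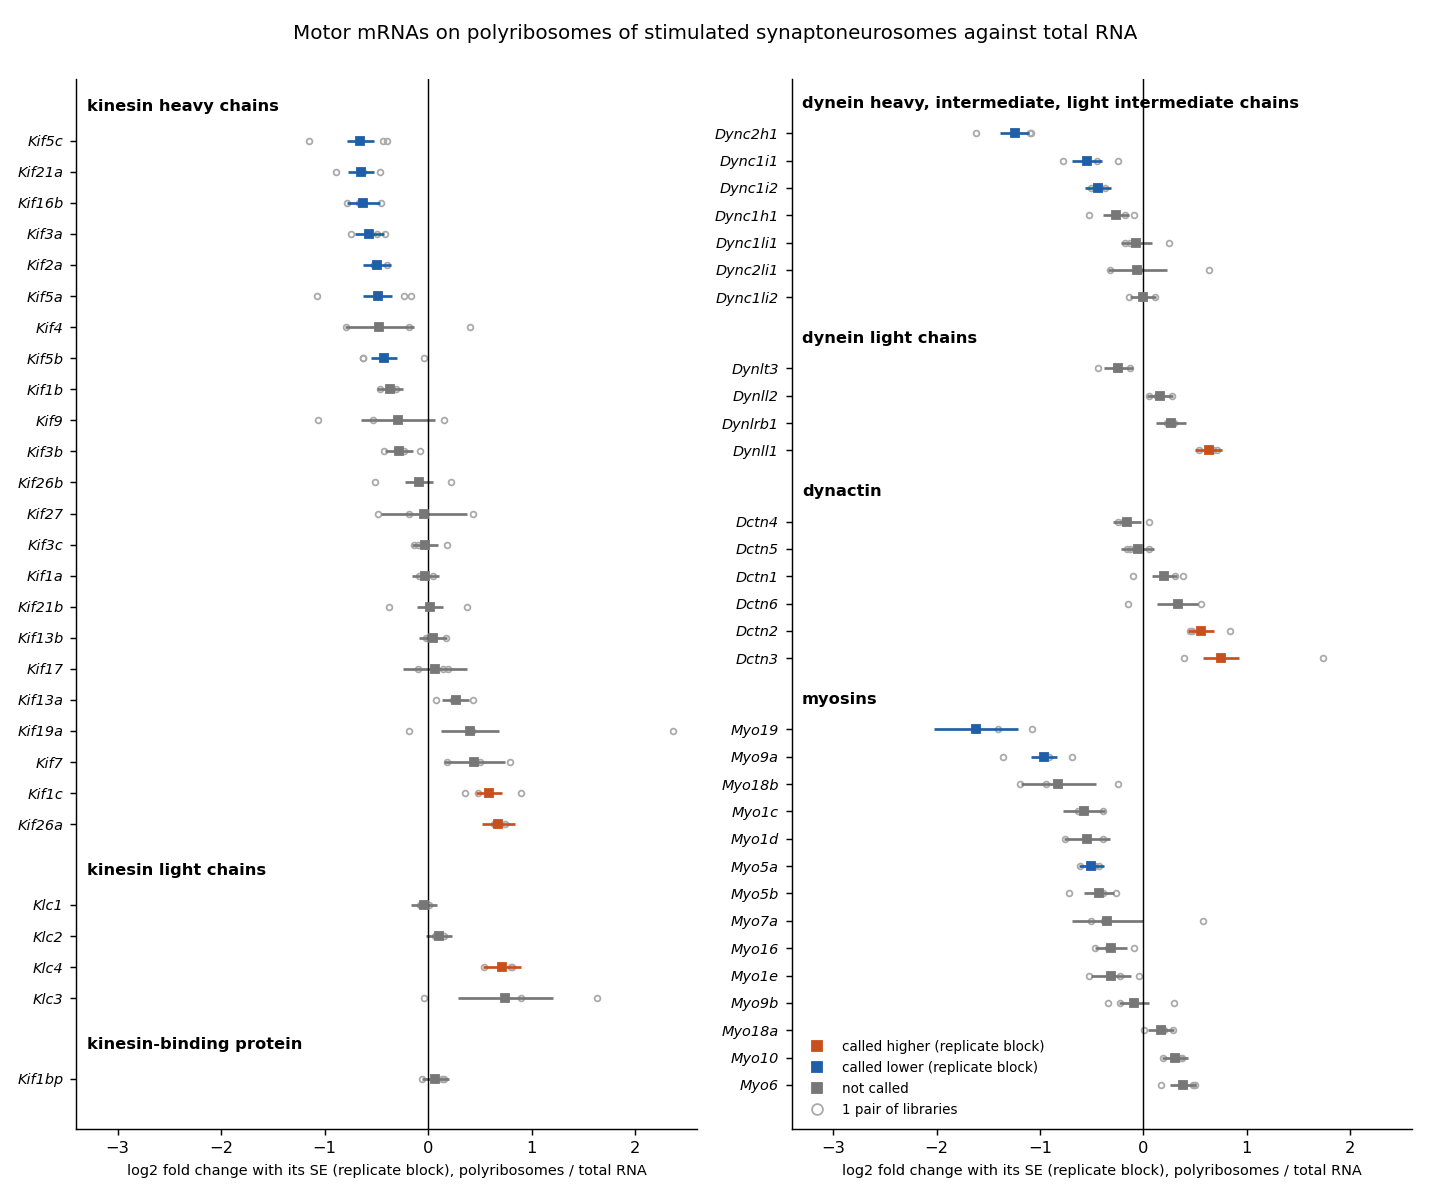
Log2 fold change of polyribosomes over total RNA for 59 of the 60 motor genes tested, by family. Squares with bars are the estimate and its SE from the fit with the replicate block, coloured where the adjusted p was under 0.01, and open circles are the 3 pairs of libraries. The genes drawn as called lower lie among the kinesin heavy chains (7), the dynein chains (3) and the myosins (3), and the 6 called higher among kinesin heavy (2) and light (1) chains, dynein light chains (1) and dynactin (2).

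Kinesin-1 is the classical motor of fast transport towards axon terminals and into dendrites, built from 2 heavy chains (KIF5A, KIF5B or KIF5C) and 2 light chains. All 3 heavy chain mRNAs were called lower on polyribosomes with the replicate block and none without it, where 13.2% and 2.36% of all genes were. With the offset 2 of the 3 were called lower, beside 7.21% of all genes. Kif5a stood at 5522, 6844 and 5094 CPM in polyribosome replicates 1 to 3 and at 6203, 8029 and 10724 CPM in total RNA. The groups overlapped, each polyribosome library was below its own total RNA partner, and the third pair was much farther apart than the others, at -0.17, -0.23 and -1.07 on the log2 scale. The fold change of Kif5a was -0.51 ± 0.22 (adjusted p = 0.12). With the replicate block it was -0.49 ± 0.14 (adjusted p = 0.0030), and this call was lost whenever 1 pair was left out, with values from -0.66 to -0.21.

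Kif5c, a heavy chain found mainly in neurons, stood at 1598, 1728 and 934 CPM on polyribosomes and at 2156, 2276 and 2075 CPM in total RNA. The groups did not overlap, and the lowest value belonged to polyribosome replicate 3. Its fold change was -0.61 ± 0.22 (adjusted p = 0.069), and -0.66 ± 0.13 with the block (adjusted p = 2.6e-05), which was called with any pair left out and with the GC and length offset (-0.40 ± 0.13, adjusted p = 0.0095). Kif5b, the heavy chain made in most cell types, stood at 392, 359 and 273 CPM against 404, 554 and 423 CPM. Its -0.43 ± 0.13 with the block (adjusted p = 0.0045) became 0.01 ± 0.12 once GC content and length were taken into account, where Kif5b, at 41.1% GC, had the second lowest GC content of the kinesins tested. Per kb, Kif5a made up 76.2% ± 3.74 of kinesin-1 heavy chain mRNA on polyribosomes and 74.5% ± 5.40 in total RNA (SD, n = 3), Kif5c 18.6% ± 3.31 and 20.6% ± 4.48, and Kif5b 5.19% ± 0.71 and 4.93% ± 1.12, with no test of the shares. By pair, the share of Kif5c was lower on polyribosomes in all 3 (21.4% against 24.8%, 19.5% against 21.1% and 14.97% against 15.9%), and that of Kif5a was higher in 2 of 3.

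Among the light chains, which bind cargo adaptors, 1 of 4 was called with the block, and it was higher. Klc1, the main neuronal light chain, stood at 287, 315 and 325 CPM on polyribosomes and 302, 325 and 324 CPM in total RNA, and its fold change of -0.04 ± 0.16 (adjusted p = 0.90) was the lowest of the family. Klc2 was at 0.13 ± 0.19 (adjusted p = 0.67). Klc4 stood at 17.6, 21.99 and 25.5 CPM on polyribosomes and at 11.9, 12.4 and 14.4 CPM in total RNA, without overlap. Its fold change was 0.78 ± 0.22 (adjusted p = 0.028), 0.71 ± 0.19 with the block (adjusted p = 0.0012) and 0.34 ± 0.18 with the GC and length offset as well (adjusted p = 0.16). Klc4 thus formed 6.35% ± 0.54 of light chain mRNA per kb on polyribosomes and 3.91% ± 0.19 in total RNA. Over the 4 light chains 0 were called by edgeR in either direction without the block, 1 higher and 0 lower at an unadjusted p under 0.05. DESeq2 called 0 and gave Klc3 no adjusted p. Of all genes, 15.4% and 17.1% passed at that unadjusted p, and the block called 11.8% higher and 13.2% lower. Klc3 shares 28.5% and Klc2 13.7% of their exon bases with other genes, and the sources used here do not state whether reads were counted by strand. The kinesin-binding protein Kif1bp was at 0.09 ± 0.16 (adjusted p = 0.75).

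**Figure D2:**
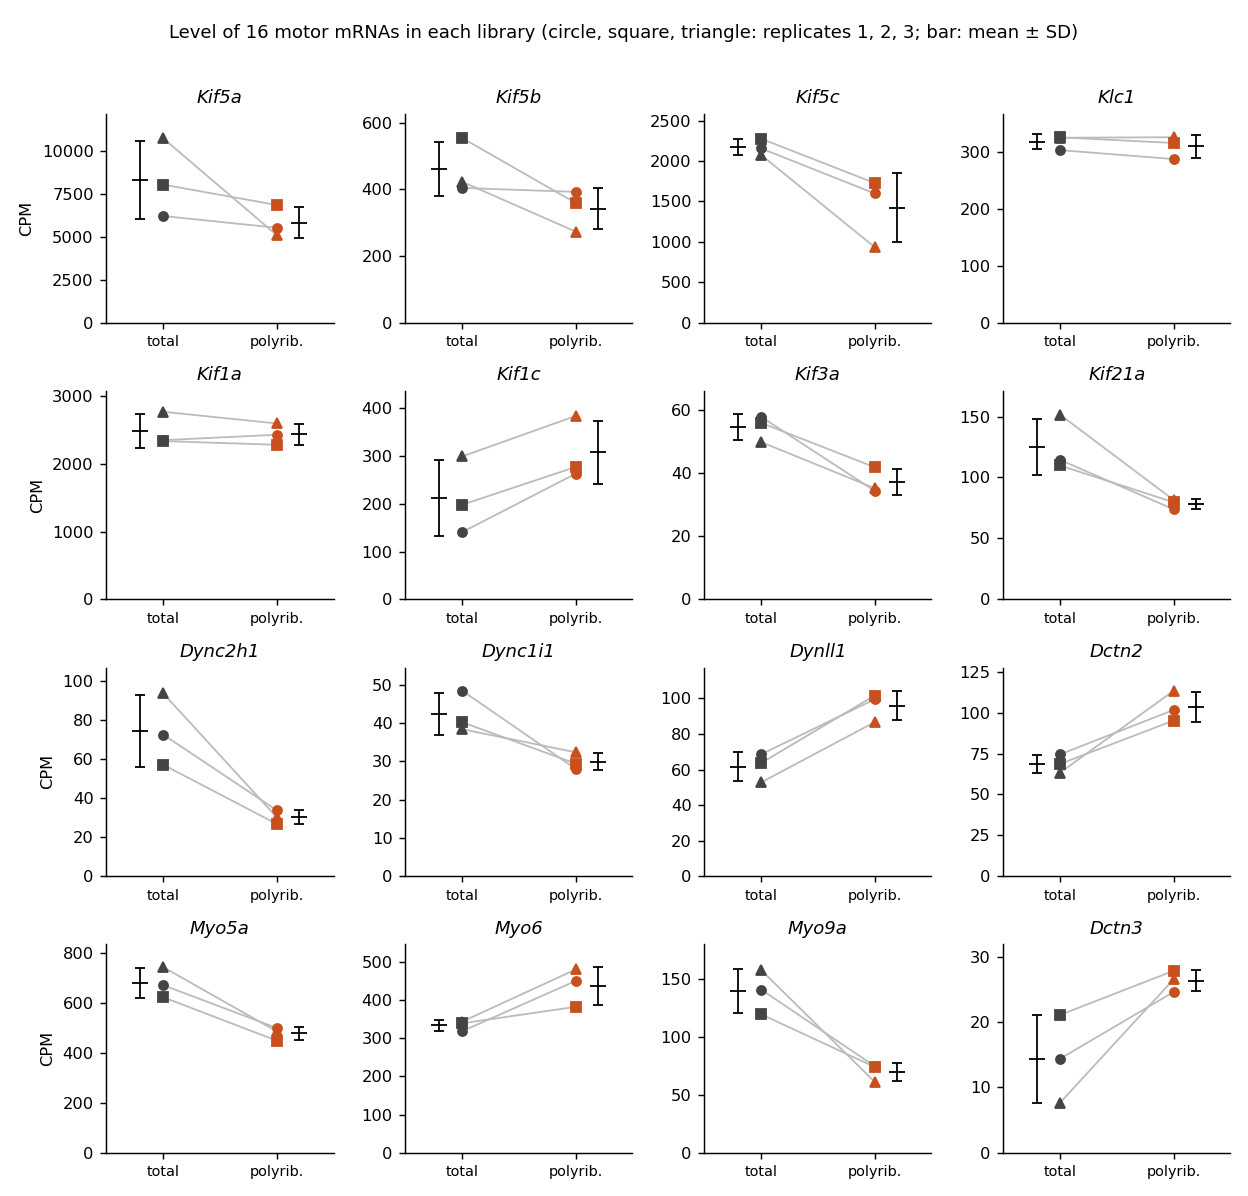
Level in CPM (vertical axes, from 0) of 16 motor mRNAs in each total RNA and polyribosome library. Circles, squares and triangles are replicates 1, 2 and 3, grey lines join the libraries of a pair, and bars give the mean and SD of 3 libraries. Kif5a goes from 10724 to 5094 CPM in replicate 3 and from 6203 to 5522 and 8029 to 6844 CPM in replicates 1 and 2, whereas Dync2h1 and Myo9a are lower in every polyribosome library than in any total RNA library.

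Kinesin-2 carries late endosomes, N-cadherin vesicles and ciliary cargo. Kif3a stood at 34.4, 41.9 and 35.2 CPM on polyribosomes and at 57.9, 55.9 and 49.9 CPM in total RNA. Every polyribosome library was below every total RNA library, with a fold change of -0.57 ± 0.17 (adjusted p = 0.038), -0.57 ± 0.14 with the block (adjusted p = 0.00051) and -0.45 ± 0.13 with the offset (adjusted p = 0.0033). Its dimer partners were not called: Kif3b was at -0.29 ± 0.17 and Kif3c at -0.03 ± 0.16, although 43.6% of the exon bases of Kif3c are shared with another gene. Per kb, Kif3a made up 24.6% ± 1.97 of kinesin-2 heavy chain mRNA on polyribosomes and 31.3% ± 0.62 in total RNA, and Kif3c 55.7% ± 2.21 and 49.0% ± 1.39. The libraries did not overlap in either share, and 3 against 3 libraries allow an exact two-sided permutation p no lower than 0.1. Kif17, which carries NMDA receptor subunits in dendrites, was low at 3.92 to 5.42 CPM and its fold change was 0.11 ± 0.30.

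Kinesin-3 motors move synaptic vesicle precursors, dense core vesicles and mitochondria. Kif1a, the carrier of synaptic vesicle precursors, stood at 2431, 2283 and 2598 CPM on polyribosomes and 2351, 2338 and 2770 CPM in total RNA. The groups overlapped almost completely (-0.03 ± 0.18, adjusted p = 0.93). Kif1b had a lower value in each polyribosome library, at 1231, 1251 and 1107 CPM against 1524, 1589 and 1526 CPM, and its -0.37 ± 0.17 was not called without the block (adjusted p = 0.14) or with it (adjusted p = 0.014). Kif13b, a carrier of phosphoinositide signalling cargo, was at 0.12 ± 0.32 and varied more between replicates, from 37.6 to 88.2 CPM, than between groups. A pair of kinesin-3 genes outside the named list, chosen after their values were seen, moved apart. Kif1c, the third KIF1 motor, stood at 263, 277 and 384 CPM on polyribosomes and 141, 198 and 299 CPM in total RNA, higher in each of the 3 pairs although the groups overlapped. Its 0.55 ± 0.24 (adjusted p = 0.13) became 0.59 ± 0.13 with the block (adjusted p = 8.7e-05) and 0.56 ± 0.12 with the offset (adjusted p = 2.9e-05), and the blocked call held with 1 of the 3 pairs left out and missed the threshold with either other. Kif1c made up 9.99% ± 1.54 of kinesin-3 mRNA per kb on polyribosomes and 6.56% ± 1.83 in total RNA. Kif16b, an endosomal kinesin, was lower at -0.63 ± 0.16 with the block (adjusted p = 0.00095) and missed the threshold with the offset (-0.36 ± 0.15, adjusted p = 0.065).

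The KIF21 motors of the kinesin-4 class also guide microtubule growth. Kif21a stood at 73.9, 79.7 and 81.5 CPM on polyribosomes and 114, 110 and 152 CPM in total RNA, with no overlap. It had the lowest fold change among kinesins with at least 10 CPM, -0.66 ± 0.17 (adjusted p = 0.022). With the block it was -0.65 ± 0.12 (adjusted p = 1.1e-05), called with any pair left out, and -0.40 ± 0.11 with the offset (adjusted p = 0.0038). Its paralog Kif21b, at 182, 150 and 178 against 141, 149 and 231 CPM, overlapped between groups and was at -0.01 ± 0.20 (adjusted p = 0.98). Per kb, Kif21a made up 36.4% ± 2.85 of kinesin-4 mRNA on polyribosomes and 47.7% ± 1.70 in total RNA, and Kif21b 55.9% ± 3.27 and 46.3% ± 3.43.

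At the other end of the kinesins stood Kif26a, an unusual kinesin without motor activity, at 32.7, 26.8 and 40.4 CPM on polyribosomes and 20.6, 17.1 and 24.0 CPM in total RNA. Its 0.73 ± 0.21 (adjusted p = 0.034) was called with the block (0.68 ± 0.16, adjusted p = 0.00040) and was 0.39 ± 0.16 with the offset (adjusted p = 0.050). Kif2a, a microtubule depolymerase, was at -0.52 ± 0.19 (adjusted p = 0.074), at -0.50 ± 0.14 with the block (adjusted p = 0.0021) and at 0.01 ± 0.12 with the offset, and it had the lowest GC content of all 60 genes, 38.6%. It shares 13.2% of its exon bases with another gene. Over the 23 kinesin heavy chains tested, the median was -0.11. edgeR called 0 in either direction without the block, and DESeq2 called 0. At an unadjusted p under 0.05, 2 were higher and 8 lower, where 15.4% and 17.1% of all genes passed. The block gave 2 higher and 7 lower, and the block with the offset 1 higher and 4 lower. Of the 15 kinesins of axonal and dendritic transport, 1 was higher and 6 lower with the block and 1 higher and 4 lower with the offset, where 11.8% and 13.2% of all genes were called with the block and 9.1% and 7.21% with the offset.

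Cytoplasmic dynein 1 is built on the heavy chain DYNC1H1, to which intermediate, light intermediate and light chains attach. Dync1h1 stood at 572, 560 and 710 CPM on polyribosomes and 824, 597 and 803 CPM in total RNA. The groups overlapped, and the fold change was -0.27 ± 0.19 (adjusted p = 0.33). Both intermediate chains, which bind dynactin, were lower without overlap. Dync1i1, the neuronal form, stood at 28.0, 29.4 and 32.3 CPM against 48.4, 40.2 and 38.4 CPM, and Dync1i2, the widespread form, at 61.7, 58.0 and 65.9 CPM against 84.7, 75.02 and 94.0 CPM. Without the block neither was called (adjusted p = 0.056 and 0.076). Dync1i1 was at -0.55 ± 0.15 with the block (adjusted p = 0.0016) and at -0.67 ± 0.14 with the offset (adjusted p = 2.4e-05). Dync1i2 was called with the block alone (-0.44 ± 0.13, adjusted p = 0.0032) and not with the offset (-0.27 ± 0.12, adjusted p = 0.065). The light intermediate chains, which hold cargo adaptors, did not separate, with Dync1li1 at -0.06 ± 0.18 and Dync1li2 at -0.01 ± 0.16, and Dync1li2 made up 76.9% of their mRNA per kb in both groups (SD 2.24 and 2.04).

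The largest difference in the dynein family was in Dync2h1, on chromosome 9 of GRCm38 from 6928503 to 7184446, the heavy chain of dynein 2, which moves cargo inside primary cilia. It stood at 33.8, 26.8 and 30.3 CPM on polyribosomes and 72.8, 57.3 and 94.0 CPM in total RNA. Every polyribosome library was below every total RNA library, and the fold change was -1.27 ± 0.20 (adjusted p = 0.0023). The block gave -1.25 ± 0.14 (adjusted p = 3.8e-13), called with any pair left out, and the offset gave -0.78 ± 0.12 (adjusted p = 3.3e-08). Without the block it missed the threshold without polyribosome replicate 2 (-1.19, adjusted p = 0.014) and with the GC and length offset but no block (-0.79, adjusted p = 0.018). Its partner chain Dync2li1, named as the other gene of dynein 2, was at -0.03 ± 0.28 with 3.84 to 6.70 CPM in the single libraries. Of 4 markers of ependymal and ciliated cells, 2 passed the filter, and their list summed to 10.3 to 13.1 CPM on polyribosomes and 6.21 to 11.1 CPM in total RNA with overlapping groups, and their part in the difference of Dync2h1 was not tested. Of the 7 dynein chains, 7 had a negative fold change, with a median of -0.27, and so had 6120 of all 12255 genes. The values of Dync1li1, Dync1li2 and Dync2li1 were near 0, at -0.06, -0.01 and -0.03, and each was positive in 1 pair. Only 4 of the 7 were lower in all 3 pairs, where 30.6% of all genes were. Without the block 1 was called lower and 0 higher, where 2.36% and 0.71% of all genes were. At an unadjusted p under 0.05, 0 were higher and 3 lower, where 15.4% and 17.1% of all genes passed. DESeq2 called 0 higher and 1 lower, beside 2.48% and 3.71% of its genes.

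**Figure D3:**
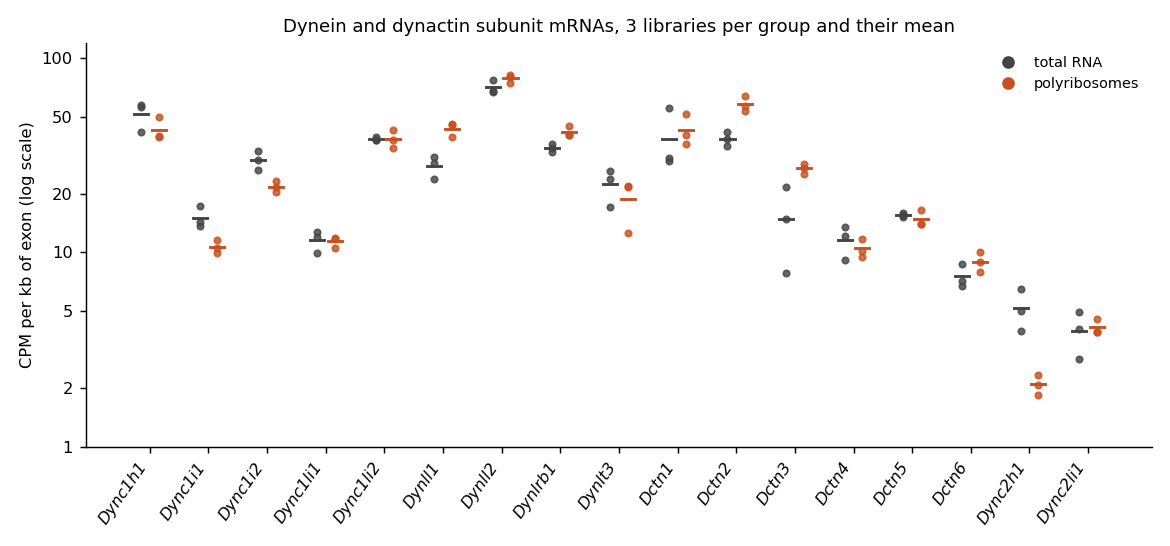
Level per kb of exon (CPM per kb, log scale) of 17 dynein and dynactin subunit mRNAs, with 3 total RNA libraries (grey) and 3 polyribosome libraries (orange) as points and the group mean as a line. Dync1i1, Dync1i2 and Dync2h1 lie lower on polyribosomes, Dynll1, Dctn2 and Dctn3 higher, and the dynein 1 and dynactin subunits span from 8.24 (Dctn6) to 74.6 (Dynll2) CPM per kb over all libraries.

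Dynein light chains are small proteins that also serve as dimerization hubs outside the motor. The LC8 chains are made by a pair of genes, Dynll1 and Dynll2. Their coding sequences are shown because they are close paralogs, both well above the filter, and only Dynll1 was called with the block. Without the block neither gene was called. Both hold 267 coding bases without the stop codon and differ at 50 of them (81.27% identity, longest identical run 16 bases). They share no stretch of 100 bases. The sequences come from the Gencode vM21 transcripts, Dynll1 on chromosome 5 from 115297110 to 115300999 and Dynll2 on chromosome 11 from 87979525 to 87987533 of GRCm38, both on the minus strand and read 5′ to 3′ from the start codon, with capitals at the bases that differ.
Dynll1: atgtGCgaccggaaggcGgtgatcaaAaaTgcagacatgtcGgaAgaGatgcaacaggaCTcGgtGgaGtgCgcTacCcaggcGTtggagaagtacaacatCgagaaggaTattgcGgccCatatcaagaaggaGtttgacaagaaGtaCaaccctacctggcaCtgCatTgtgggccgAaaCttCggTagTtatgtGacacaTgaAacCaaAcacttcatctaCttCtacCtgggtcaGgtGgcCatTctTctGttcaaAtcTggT
Dynll2: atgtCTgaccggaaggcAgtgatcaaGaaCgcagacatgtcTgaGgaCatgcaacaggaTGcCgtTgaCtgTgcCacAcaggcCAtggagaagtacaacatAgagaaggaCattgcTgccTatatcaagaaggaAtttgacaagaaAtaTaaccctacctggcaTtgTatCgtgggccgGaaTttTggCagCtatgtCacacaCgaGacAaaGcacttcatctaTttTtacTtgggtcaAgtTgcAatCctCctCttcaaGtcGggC

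Dynll1 stood at 99.6, 102 and 86.7 CPM on polyribosomes and 68.5, 63.6 and 52.7 CPM in total RNA. All polyribosome libraries were above all total RNA libraries, and the pairs were alike at 0.54, 0.67 and 0.71. The fold change was 0.62 ± 0.17 (adjusted p = 0.026), 0.63 ± 0.13 with the block (adjusted p = 4.1e-05) and 0.59 ± 0.12 with the offset (adjusted p = 2.3e-05). Dynll2, which binds myosin V as well as dynein, stood at 223, 219 and 203 CPM against 184, 211 and 185 CPM and was at 0.15 ± 0.16 (adjusted p = 0.54). Dynll1 therefore made up 35.5% ± 0.94 of LC8 mRNA per kb on polyribosomes and 28.3% ± 2.91 in total RNA. Dynlrb1, the roadblock chain, was higher without overlap (40.4, 40.4 and 44.9 against 34.5, 33.2 and 36.4 CPM) but not called (0.28 ± 0.17, adjusted p = 0.27), and it turned to -0.21 ± 0.14 with the block and the offset. Dynlt3, of the Tctex type, was at -0.29 ± 0.22 (adjusted p = 0.40). Over the 4 light chains tested edgeR called 0 without the block, and DESeq2 called 0. At an unadjusted p under 0.05, 1 was higher and 0 lower, where 15.4% and 17.1% of all genes passed.

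The other Tctex chain, DYNLT1, is encoded in the mouse by several copies with near-identical coding sequences, and none passed the filter on low counts. The table lists 19 counts for Dynlt1a over the 6 libraries, 0 for Dynlt1b, 4 for Dynlt1c and 8 for Dynlt1f. Of the stretches of 100 bases in the longest coding transcript, 43.9% recur in other genes for Dynlt1a. For Dynlt1b, Dynlt1c and Dynlt1f these shares are 82.0%, 86.5% and 85.1%. The coding sequences of Dynlt1a, Dynlt1c and Dynlt1f, 339 bases without the stop codon, are identical, and Dynlt1b differs from them at 1 base. Reads that match several copies cannot be assigned to one. How the counting treated them is not given in the sources used here, so these counts are no full measure of the gene. The first 90 coding bases are shown with that base in capitals. The genes lie on chromosome 17, Dynlt1a from 6310547 to 6317474 (minus strand), Dynlt1b from 6430112 to 6436293 (plus), Dynlt1c from 6601671 to 6609774 (plus) and Dynlt1f from 6648941 to 6655939 (minus), and the capital marks the base that differs between Dynlt1a and Dynlt1b.
Dynlt1a: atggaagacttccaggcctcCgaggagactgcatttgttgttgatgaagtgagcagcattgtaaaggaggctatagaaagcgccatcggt
Dynlt1b: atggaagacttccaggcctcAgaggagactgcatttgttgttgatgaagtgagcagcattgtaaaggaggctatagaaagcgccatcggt

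Dynactin binds dynein to cargo and lengthens its runs. The 6 of its subunits whose symbols begin with Dctn did not move as one. Dctn2, the p50 subunit dynamitin of the shoulder, stood at 102, 95.2 and 113 CPM on polyribosomes and 74.5, 68.7 and 63.3 CPM in total RNA. Dctn3, the p24 subunit of the same shoulder, stood at 24.6, 27.9 and 26.6 CPM against 14.4, 21.1 and 7.67 CPM, the lowest in the shallow replicate 3. The libraries did not overlap for either gene. The fold changes were 0.58 ± 0.16 for Dctn2 (adjusted p = 0.029) and 0.76 ± 0.24 for Dctn3 (adjusted p = 0.045), and both were called with the block (0.56 ± 0.13, adjusted p = 0.00026, and 0.75 ± 0.18, adjusted p = 0.00036). With the offset they fell short, at 0.25 ± 0.12 (adjusted p = 0.10) and 0.39 ± 0.17 (adjusted p = 0.073). Dctn1, the microtubule-binding arm p150, was at 0.17 ± 0.23 and varied with the replicate, from 147 to 277 CPM in total RNA. Dctn4, of the pointed end, was the lowest at -0.17 ± 0.18. Over the family, edgeR called 0 without the block, and DESeq2 called 0. At an unadjusted p under 0.05, 2 were higher and 0 lower, where 15.4% and 17.1% of all genes passed. The block called 2 higher and 0 lower, where it called 11.8% and 13.2% of all genes.

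Unconventional myosins had the lowest family median, -0.45 over 15 genes, with 12 negative values. All 4 tested class 1 myosins, which tie membranes to actin, were negative. Myo9a, on chromosome 9 from 59750896 to 59928866, encodes an unconventional myosin of class 9. It stood at 74.9, 74.3 and 61.4 CPM on polyribosomes and 141, 120 and 158 CPM in total RNA, without overlap. The fold change was -0.98 ± 0.17 (adjusted p = 0.0037). With the block it was -0.97 ± 0.13 (adjusted p = 4.1e-10), called with any pair left out, and with the offset -0.48 ± 0.11 (adjusted p = 0.00040). Without the block the call was lost without polyribosome replicate 2 (-1.03, adjusted p = 0.016), total RNA replicate 1 (-0.97, adjusted p = 0.017) or total RNA replicate 2 (-1.09, adjusted p = 0.014), and with the GC and length offset but no block (-0.49, adjusted p = 0.055).

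Myo5a, which carries endoplasmic reticulum and receptors into spines, was the most abundant myosin per kb in total RNA (57.8 ± 5.16 CPM per kb, against 41.8 ± 1.69 for Myo6), and the order turned on polyribosomes (40.7 ± 2.23 against 54.9 ± 6.28). Myo5a stood at 501, 450 and 487 CPM on polyribosomes and 673, 624 and 745 CPM in total RNA. It was lower without overlap, at -0.50 ± 0.17 (adjusted p = 0.052), at -0.50 ± 0.12 with the block (adjusted p = 0.00063) and at -0.12 ± 0.12 with the offset (adjusted p = 0.48). Myo6, which walks towards the minus end of actin and takes part in endocytosis, had the highest fold change among the myosins. It stood at 450, 382 and 480 CPM against 318, 339 and 343 CPM, each polyribosome library above each total RNA library. Its 0.39 ± 0.17 (adjusted p = 0.12) and, with the block, 0.38 ± 0.12 (adjusted p = 0.01004) were not called. With the offset it was 0.75 ± 0.12 (adjusted p = 1.3e-08), and its GC content was 44.2%. Myo10, a motor of filopodia, was at 0.31 ± 0.21, and Myo18a, a myosin of the Golgi, at 0.16 ± 0.21.

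Another 2 myosins, outside the named list and chosen after their values were seen, were called with the offset. Myo19, a motor of mitochondria, was at 1.08, 1.36 and 2.26 CPM against 4.22, 3.35 and 6.71 CPM (-1.62 ± 0.40 with the block, adjusted p = 0.00079, and -1.71 ± 0.41 with the offset), near the lower limit of the filter. Myo1c was called with the offset and not with the block alone (-0.72 ± 0.20, adjusted p = 0.0031). Over the 15 myosins tested, 0 were higher and 1 lower without the block, and 1 higher and 8 lower at an unadjusted p under 0.05. DESeq2 gave 0 higher and 1 lower, the block 0 and 4, and the block with the offset 1 and 4. Of all genes, 0.71% were higher and 2.36% lower without the block, and 15.4% and 17.1% at that unadjusted p. The shares were 2.48% and 3.71% by DESeq2, 11.8% and 13.2% with the block, and 9.1% and 7.21% with the offset.

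Comparing the families, the medians of the log2 fold change were -0.11 for kinesin heavy chains, 0.46 for kinesin light chains, -0.27 for heavy, intermediate and light intermediate dynein chains, 0.22 for dynein light chains, 0.24 for dynactin and -0.45 for myosins. In the 3 pairs they were -0.04, -0.19 and -0.19 for kinesin heavy chains, -0.45, -0.32 and -0.18 for the dynein chains, 0.25, 0.17 and 0.21 for the dynein light chains and -0.39, -0.51 and -0.39 for myosins, with the same sign in each pair. Dynactin gave 0.31, 0.39 and -0.02, and kinesin light chains 0.31, 0.03 and 0.48. With the block and the offset the medians were -0.03, -0.03, -0.16, 0.04, 0.15 and -0.37 in the order first given, so that the medians of both kinds of light chain came within 0.05 of 0 and that of the myosins stayed the lowest. These medians describe 4 to 23 genes and were not tested.

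The families differ in size and base composition. Among the motor genes, 32 tested genes encode a protein of at least 1000 residues, and their median log2 fold change was -0.26. The 16 with a protein from 500 to under 1000 residues had a median of -0.33, and the 12 under 500 residues had 0.12. Over all genes the medians for these sizes, in the same order, were -0.17, -0.07 and 0.09. The lowest median was thus in the middle size group among the motor genes and in the largest over all genes. The 30 motor genes below the median GC content of the 60 (52.5%) had a median of -0.33, and the 30 at or above it had 0.12. All genes on the same sides of that GC content had medians of -0.18 and 0.26. Spearman's correlation between log2 fold change and GC content was 0.51 over the 60 motor genes and 0.54 over 12212 genes, and with transcript length it was -0.33 and -0.36. These values are across genes of the same 6 libraries, and genes are not independent replicates. After the block with the offset, the correlation with GC content was 0.10 over the motor genes and 0.0024 over all genes. With transcript length it was then -0.17 and -0.012.

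**Figure D4:**
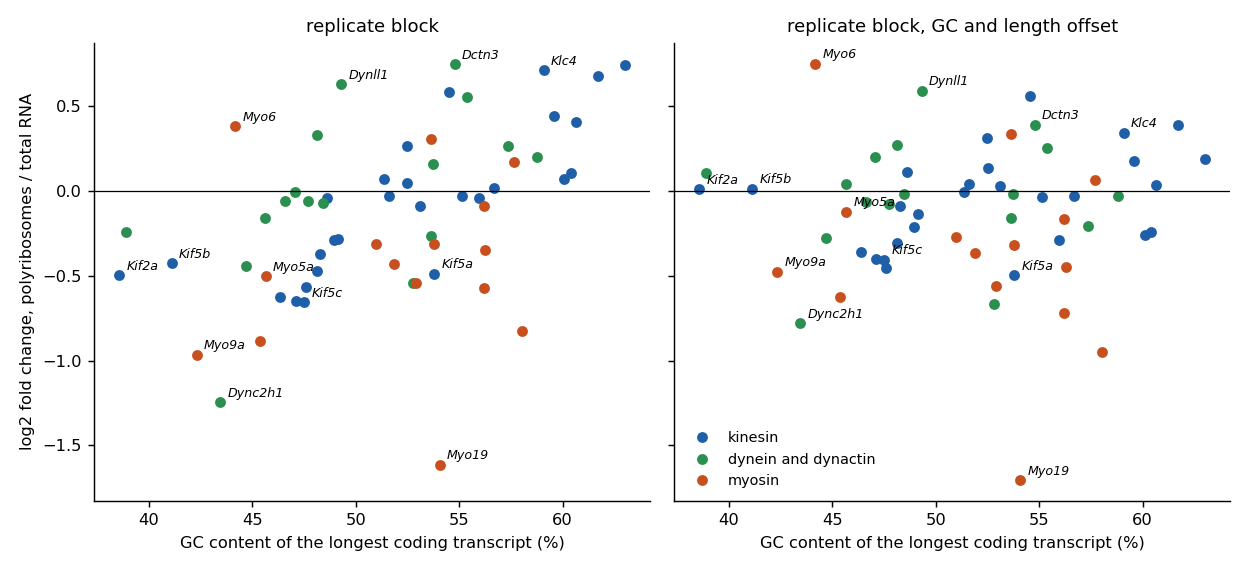
Log2 fold change of the 60 motor genes (vertical axis) against the GC content of their longest coding transcript (horizontal axis), with the replicate block (left) and with the block plus the correction for GC content and length (right). Kinesins are blue, dynein and dynactin green and myosins orange. With the offset Kif5b, Kif2a and Myo5a move to values near 0, Dync2h1 and Myo9a stay negative, Kif5a stays at -0.50 and Myo6 rises to 0.75.

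The partners of the motors were examined as lists named by their textbook role. Their counts stand beside the same shares of all genes, 11.8% higher and 13.2% lower with the block, 9.1% and 7.21% with the offset, and 0.71% and 2.36% without the block, and nothing is read from lists this short. Of 20 kinesin adaptors and regulators tested, edgeR called 0 in either direction without the block, where 0 higher and 5 lower passed at an unadjusted p under 0.05 and DESeq2 called 0 higher and 1 lower. With the block 0 were higher and 4 lower (Trak2, Grip1, Htt and Madd), and with the offset 0 and 2. The dynein adaptors and regulators, 17 tested of 19 listed in the table, had 3 genes called lower and 0 higher without the block, beside 2 higher and 4 lower at an unadjusted p under 0.05 and 0 higher and 3 lower by DESeq2. These were Hook1 (10.2 ± 2.07 CPM on polyribosomes and 27.3 ± 3.48 in total RNA, SD, n = 3), a link between dynein and endosomes, with a fold change of -1.44 ± 0.21 (adjusted p = 0.0016), Bicd1, an adaptor for Golgi vesicles and mRNA cargo (-1.05 ± 0.18, adjusted p = 0.0035), and the centrosomal adaptor Nin (-0.999 ± 0.20, adjusted p = 0.0084). With the block 1 dynein adaptor was higher and 4 were lower. The higher one was Nde1, a dynein regulator (0.67 ± 0.16, adjusted p = 0.00028, and 0.66 ± 0.15 with the offset, adjusted p = 0.00015), and Hook3 joined Hook1, Bicd1 and Nin among the lower. With the offset 1 was higher and 2 lower. Hook1 and Nin were called (-1.04 ± 0.17, adjusted p = 8.1e-08, and -0.68 ± 0.12, adjusted p = 1.7e-06) and Bicd1 was not (-0.36 ± 0.13, adjusted p = 0.023). The lists had medians of -0.09 and -0.26. Of 8 tested subunits of conventional myosin, 3 were higher and 1 lower with the block (Myh14, Myl12a and Myl12b against Myh10), of 8 tested myosin partners 1 was higher and 1 lower (Gipc1 and Rab11fip2), of 2 tested kinesins outside the name rule 1 was higher (Kifc3), and of 9 tested axonemal dynein genes 0 were higher and 3 lower (Dnah9, Dnal1 and Dnah5), with Dnah9 at -1.06 ± 0.22 called without the block too (adjusted p = 0.0094). With the offset these 4 lists gave 2 higher and 0 lower for conventional myosin, 0 and 0 for the myosin partners, 1 and 0 for the other kinesins and 0 and 1 for axonemal dynein.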

How the data were processed

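RNA of 6 mouse synaptoneurosome libraries was compared in 2 groups of 3. The authors removed ribosomal RNA, built libraries that keep the strand, aligned the reads to GRCm38 with STAR (2.5.2b in the submitters' processing notes), assigned them to genes of Gencode vM6 (basic set) and deposited unnormalized whole-number counts per protein-coding gene. Whether counting used the strand, and how reads matching several genes were treated, is not given in the sources used here. The deposited table also holds the authors' DESeq2 comparison, as a mean normalized signal, a log2 fold change with its error, a Wald score, and a p-value with its adjustment. None of these columns was used.

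From the counts, edgeR 4.0.16 (R 4.3.3) was run on all genes with TMM normalization, filterByExpr and the quasi-likelihood test. The model held the group alone, with a threshold of 0.01 on the Benjamini-Hochberg adjusted p, as in the study's methods. SE is the fold change divided by the root of the F statistic. Alternatives were DESeq2 1.42.0, other scalings and filters, the replicate as a block, a correction for GC content and length by an offset (splines with 5 degrees of freedom, Gencode vM21, values for 12212 of 12255 genes tested), and leaving out libraries. Leaving out both replicate 3 libraries, and leaving out pairs from the blocked fit, were chosen after seeing the data. The numbers pair the samples. By the study's methods the libraries of a pair come from aliquots of one preparation, both columns of a number carry the same label, and across genes the departures of both libraries from their group means had correlations of 0.37, 0.26 and 0.38. Levels in CPM, and per kb, use TMM-normalized library sizes. Lengths per kb are the exon lengths of Gencode vM21, and log2 values per pair add a prior count of 2. Replicates differed by more than sampling noise. Nothing shows that the 3 preparations were independent beyond their labels. Without the block, p-values measure the spread between them within each group. With the block, p-values measure how much the difference within a pair varies from pair to pair.

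One motor gene is counted in the totals and not reported by name here. Named genes were those called without the block, a list of neuronal transport motors, and the highest and lowest gene of each family with at least 10 CPM. Of the list of dynein adaptors, 1 symbol was not in the table. The motor genes and all lists were chosen with earlier results of these data known. On simulated counts for this comparison (12255 genes), the test without the block recovered 92 of 93 genes changed 4-fold and 62 of 107 changed 2-fold, and called 4 unchanged genes. The simulated counts held no pairing of libraries and no trend with GC content or length. The changed genes were drawn above a minimum mean count, so recovery of genes with few counts, such as Myo19, was not tested.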

Additional observations from a re-analysis of the deposited data

How the results depend on the processing

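Of 36 named motor genes under 17 alternatives, 611 values were compared. Of these, 504 kept direction and side of the threshold, 51 passed it in addition, 6 no longer passed it and 50 changed sign. The cause of these changes was not tested. Motor genes called higher (0) and lower (2) became 6 and 14 with the replicate block, 3 and 10 with the block and the GC and length offset, 2 and 5 without both replicate 3 libraries, and 5 and 7 at an adjusted p under 0.05, and 0 were lower with the GC and length offset alone. With replicate 1, 2 or 3 left out of the blocked fit they were 2 and 7, 1 and 6, and 9 and 15. Leaving out single libraries gave 0 to 2 lower. Beyond the calls named in the text, the replicate block changed no call of a named gene.

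All genes called higher (87) and lower (289) became 1441 and 1622 with the replicate block, 1115 and 884 with the block and offset, 31 and 93 with the offset but no block, 450 and 658 without replicate 3, 476 and 566 with all genes of at least 1 count, and 799 and 1085 at an adjusted p under 0.05. Library totals gave 42 higher and DESeq2 268. The blocked fit without replicate 1, 2 or 3 gave 627 and 902, 516 and 695, and 1471 and 1601. Leaving out single libraries gave 2 to 59 higher and 32 to 207 lower.

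The median of kinesin heavy chains was -0.22 by library totals and -0.25 to -0.0205 without single libraries. That of kinesin light chains was 0.0020 with the offset but no block and -0.025 with block and offset. For dynein light chains these were 0.019 and 0.045, and library totals gave 0.11. For myosins library totals gave -0.56, block and offset -0.37, and single libraries left out -0.53 to -0.40.

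With the offset but no block, then with both, the sign turned in Dctn1 (-0.038, -0.027), Dctn4 (0.042, 0.044), Dync1li2 (0.19, 0.20), Dynll2 (-0.028, -0.020), Dynlrb1 (-0.22, -0.21), Dynlt3 (0.066, 0.11), Kif17 (-0.25, -0.26), Kif2a (0.021, 0.011), Kif3c (0.046, 0.044), Kif5b (0.0029, 0.015) and Klc2 (-0.22, -0.24). The block turned Kif21b to 0.019, library totals turned Kif17 to -0.0029, and all genes of at least 1 count turned Dync1li2 to 0.018 and Kif21b to 0.017. Without replicate 3, Dync1li2 was 0.045 (0.045 in the blocked fit) and Kif21b 0.19 (0.19). The blocked fit without replicate 2 turned Dync1li1 to 0.0088, Kif13b to -0.013, Kif17 to -0.022, Kif21b to 0.013 and Kif3c to 0.029. Without single libraries the sign turned in Dync1li1 (-0.12 to 0.0205), Dync1li2 (-0.0937 to 0.0621), Kif13b (-0.27 to 0.52), Kif1a (-0.0767 to 0.0559), Kif21b (-0.15 to 0.23), Kif3c (-0.092 to 0.0217), Klc1 (-0.075 to 0.0101), Klc2 (-0.0343 to 0.26) and Myo18a (-0.000534 to 0.41).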
